A study of Mus musculus with 64 samples.

Results

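The serotonin receptor genes outside the Htr2 class were described across the prefrontal cortex (PFC) and the whole hypothalamus of psilocybin-treated and vehicle-treated mice. The 10 genes, Htr1a, Htr1b, Htr1d, Htr1f, Htr3a, Htr4, Htr5a, Htr5b, Htr6 and Htr7, were found by symbol among the 55401 genes of the count table, by a rule that names them by family and uses no measured value. Male C57BL/6J mice, 10 weeks old, group-housed and fed chow, were injected once into the peritoneum with psilocybin at 3 mg/kg or, as vehicle, with isotonic saline. Both regions were taken from each of 32 mice at 3 h or 4 weeks after the injection, 4 h after lights on, and their poly-A RNA was sequenced, which gave 8 groups of region, treatment and time. Libraries with at least 1000000 counted reads were used, 62 of 64, with 8 libraries in 6 groups and 7 in 2 groups (vehicle at 3 h in the hypothalamus and psilocybin at 4 weeks in the PFC). In the labels the PFC is named frontal cortex. The question was whether the receptors differ between the regions and whether their transcripts changed after psilocybin.

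Serotonin acts on several classes of receptor. Those of the Htr1 and Htr5 classes couple mainly to Gi/o proteins, which lower cyclic AMP and open potassium channels, whereas Htr4, Htr6 and Htr7 couple to Gs and raise cyclic AMP, and Htr3a forms the core subunit of the cation channel that serotonin opens directly. Psilocin, the active product of psilocybin, is best known as an Htr2a agonist and also binds several of the receptors described here, among them Htr1a.

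In GRCm38, the build of the counts, Htr1a spans chr13:105443639-105448122, Htr1b chr9:81628291-81633828, Htr1d chr4:136423524-136441970, Htr1f chr16:64924729-65105854, Htr3a chr9:48899213-48911021, Htr5a chr5:27842149-27855088, Htr5b chr1:121509842-121528465, Htr6 chr4:139061108-139075570 and Htr7 chr19:35958734-36057340. The annotation places a gene on the opposite strand over part of Htr1b (D430036J16Rik, 2006 reads over all libraries against 15781 for Htr1b), Htr3a (Gm32335, 72 reads against 7409) and Htr5b (Gm8217, 11 reads against 2675). The library kit marks strand, and the paper states that a read was counted only if its ends lay on the same strand. It does not say whether strand was used to assign reads to overlapping genes, so reads of Htr1b may include some from D430036J16Rik.

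RefSeq (GRCm38.p6) start sites were matched for 7 of the 10 genes, with 9 windows in all. The 250 bases before the start are printed for Htr7 and Htr1f, the genes with a single listed start that stood furthest toward the hypothalamus and toward the PFC, to show how unlike their promoters are. Capitals mark each CG dinucleotide. The Htr7 window is chr19:36057361-36057610 and the Htr1f window chr16:65105785-65106034, both on the minus strand and written 5′ to 3′.
Htr7: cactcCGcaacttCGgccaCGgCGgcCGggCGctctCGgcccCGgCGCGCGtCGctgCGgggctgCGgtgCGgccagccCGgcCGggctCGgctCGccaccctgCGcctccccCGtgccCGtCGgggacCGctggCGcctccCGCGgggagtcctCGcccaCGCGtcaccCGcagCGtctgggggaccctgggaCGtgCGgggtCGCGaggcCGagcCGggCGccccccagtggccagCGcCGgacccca
Htr1f: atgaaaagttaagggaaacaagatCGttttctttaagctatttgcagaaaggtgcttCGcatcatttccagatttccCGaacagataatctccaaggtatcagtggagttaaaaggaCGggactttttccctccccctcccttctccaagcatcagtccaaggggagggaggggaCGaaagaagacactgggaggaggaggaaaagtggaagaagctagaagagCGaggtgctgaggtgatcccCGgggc
The Htr7 window held 41 CG dinucleotides, more than 98.9% of the 32851 windows in the table, and the Htr1f window held 7, close to the median of 6. Over the other windows the count was 6 for Htr1a and Htr1b, 13 for Htr5a, 6 and 20 for the 2 starts of Htr1d, and 9 and 23 for the 2 starts of Htr6. On either strand, TATAAA was in none of the 9 windows and in 12.4% of all windows, TGACGTCA in none and in 1.55%, and GGGCGG in the windows of Htr1a, both starts of Htr1d and 1 of Htr6 and in 32.7% of all windows. These are matches of letters only.

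Counted reads per library lay between 8061033 and 70361839 (median 18287978.5). In the comparison of regions, 12 of 12 hypothalamus markers were lower and 9 of 10 cortex markers were higher in the PFC, as the labels have it. Some libraries stood apart in their summed level of a marker list. Vehicle replicate 6 of the PFC at 4 weeks had a summed level of striatum markers of 2217 CPM (counts per 1000000) against a PFC median of 326.8, a hypothalamus library at 4 weeks, psilocybin replicate 5, had 2896 CPM of hypothalamus markers against a median of 633.9, vehicle replicate 3 of the hypothalamus at 4 weeks had 1241 CPM of choroid plexus markers against 49.92, and psilocybin replicate 7 of the PFC at 3 h had 954.9 CPM of blood markers against 256.5. All 4 were kept, and each count of receptor genes called was the same with the 4 left out together, a check added after the data were seen. In bulk tissue, fewer cells of a type and less RNA per cell cannot be told apart.

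Per length, the 10 receptors covered a wide range in both regions, and the order differed between them. Levels are given as RPKM, the scaled count per kilobase of exon. In the hypothalamus Htr7 was first in 31 of 31 libraries, with 9.82 ± 1.05 RPKM (SD, n = 31), which was 38% of the summed RPKM of the 10 genes. In the PFC the top 3 were close together, with Htr3a at 4.56 ± 1.06, Htr5a at 4.48 ± 0.803 and Htr1a at 4.06 ± 0.970 RPKM (SD, n = 31). Htr3a was above Htr5a in 15 of 31 PFC libraries, and Htr3a was first in 14, Htr5a in 13 and Htr1a in 4, so the order of the 3 was not fixed. Among the group means Htr3a was first in both 3 h groups of the PFC, Htr1a in the vehicle group at 4 weeks and Htr5a in the psilocybin group at 4 weeks, whereas in each of the 4 hypothalamus groups the order Htr7, Htr1a, Htr1b, Htr5a held.

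Below these in the PFC came Htr7 with 3.00 RPKM, Htr1b with 2.21, Htr6 with 1.57, Htr1f with 0.907, Htr5b with 0.484, Htr1d with 0.295 and Htr4 with 0.199 RPKM. Each of these was above the next in 25 to 30 of 31 libraries, except that Htr1d was above Htr4 in 16. In the hypothalamus Htr1a had 4.01 RPKM, Htr1b 3.41, Htr5a 2.76, Htr5b 1.72, Htr3a 1.12, Htr4 1.03, Htr1d 0.847, Htr6 0.815 and Htr1f 0.329 RPKM. There the neighbours from Htr5b down to Htr6 changed places often, each being above the next in 18 to 22 of 31 libraries, and only Htr6 over Htr1f was nearly constant, in 30 libraries. Set against all genes tested, Htr7 in the hypothalamus was above 75.2% of genes and Htr4 in the PFC above 8.68%.

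**Figure D1:**
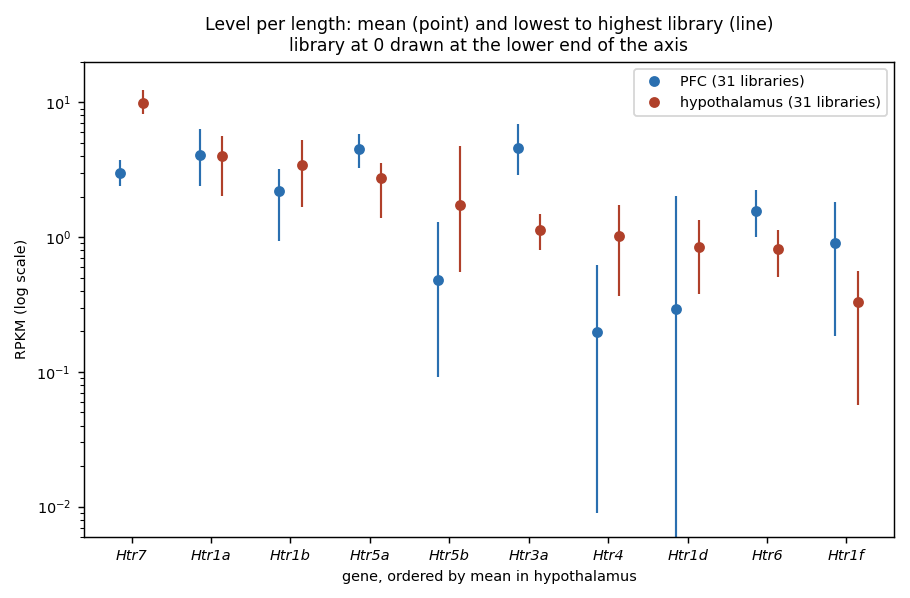
Level of each receptor gene in RPKM on a log scale (points, mean of 31 libraries per region; lines, lowest to highest library; a library at 0 is drawn at the lower end of the axis). Htr7 leads in the hypothalamus at 9.82 RPKM, while Htr3a, Htr5a and Htr1a share the top of the PFC between 4.06 and 4.56 RPKM.

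Between the regions 9 of the 10 receptors differed, against 76.2% of all 18971 genes tested, so the share alone is not particular to the receptors. 4 were higher in the PFC (39.6% of all genes were) and 5 were higher in the hypothalamus (36.5%). All 10 passed the filter on low counts. Extraction pools A and B hold only hypothalamus and pools C and D only PFC, so region and extraction cannot be told apart. PFC and hypothalamus libraries of the same treatment, time and number were taken as those of 1 mouse. The values below are CPM scaled by TMM (edgeR's trimmed mean of M values), which compare 1 gene between libraries, and the fold changes are from edgeR over the 4 PFC groups against the 4 hypothalamus groups.

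Htr3a, the channel subunit, was the receptor most raised in the PFC. It ranged from 6.00 to 14.4 CPM (median 9.11) in the PFC libraries and from 1.66 to 3.09 CPM (median 2.31) in the hypothalamus libraries. The ranges did not overlap, which was so for 6.57% of all genes in this direction, and all 30 mice with both libraries had the higher level in the PFC. The difference was 2.01 on the log2 scale (SE 0.0752, adjusted p = 4.65e-33), about 4.03-fold.

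Among the Gs-coupled receptors, Htr7 and Htr4 were higher in the hypothalamus and Htr6 was higher in the PFC. Htr7, which is known for roles in circadian timing, ranged from 27.6 to 42.0 CPM (median 33.3) in the hypothalamus and from 8.10 to 12.7 CPM (median 10.1) in the PFC. Again no library of one region reached the other, as for 4.69% of all genes in this direction. The log2 difference, PFC over hypothalamus, was -1.71 (SE 0.0450, adjusted p = 6.15e-41), or 3.27-fold higher in the hypothalamus, and it was the most precise of the 10.

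Htr4 had the largest difference between the regions. It ranged from 1.81 to 8.43 CPM (median 4.93) in the hypothalamus and from 0.0439 to 3.07 CPM (median 0.922) in the PFC. Every mouse with both libraries, 30 of 30, had more Htr4 in the hypothalamus, and 30 of 31 hypothalamus libraries were above every PFC library. The log2 difference was -2.43 (SE 0.161, adjusted p = 6.16e-21), 5.38-fold. PFC libraries held a mean of 18.6 reads of the gene, so single PFC values carry a counting error of about 25.3%.

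Htr6 ran the other way at a lower level. It ranged from 2.34 to 5.25 CPM (median 3.67) in the PFC and from 1.18 to 2.66 CPM (median 1.95) in the hypothalamus, and it was higher in the PFC of all 30 mice. The ranges touched, with 27 of 31 PFC libraries above all of the hypothalamus. The log2 difference was 0.95 (SE 0.0843, adjusted p = 1.43e-15).

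The 4 receptors of the Htr1 class did not share a direction. Htr1f ranged from 0.477 to 4.71 CPM (median 2.23) in the PFC and from 0.147 to 1.46 CPM (median 0.836) in the hypothalamus, a log2 difference of 1.45 (SE 0.150, adjusted p = 3.58e-13), and was higher in the PFC of 28 of 30 mice. Htr1b, a receptor of axon terminals that restrains transmitter release, was lower in the PFC at 4.43 to 15.2 CPM (median 10.3) than in the hypothalamus at 7.92 to 24.9 CPM (median 15.9). Its log2 difference was -0.64 (SE 0.0775, adjusted p = 8.06e-11), with 29 of 30 mice higher in the hypothalamus though the ranges of the libraries overlapped.

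Htr1d, another receptor of axon terminals, was also lower in the PFC, where it ranged from 0 to 6.47 CPM (median 0.625), than in the hypothalamus, where it ranged from 1.21 to 4.26 CPM (median 2.76). The single highest value of all libraries nevertheless came from the PFC, from vehicle replicate 6 at 4 weeks. The log2 difference was -1.88 (SE 0.207, adjusted p = 3.01e-12), and 28 of 30 mice had more in the hypothalamus.

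Htr1a, the autoreceptor of serotonin neurons that is also found on many target neurons, was the one receptor with no call between the regions. It ranged from 10.7 to 28.5 CPM (median 17.8) in the PFC and from 9.10 to 25.4 CPM (median 18.5) in the hypothalamus. The ranges lay over each other, and 15 of 30 mice were higher in each region. The log2 difference was 0.00 (SE 0.0630, 95% interval -0.12 to 0.13, adjusted p = 0.955), and its sign turned with the scaling, at -0.04 with DESeq2-type size factors. Taken group by group, it was -0.29 after vehicle at 3 h (adjusted p = 0.0459, where 54.9% of all genes were called), -0.09 after psilocybin at 3 h, 0.16 after psilocybin at 4 weeks and 0.24 after vehicle at 4 weeks (adjusted p = 0.0872). The other 9 receptors kept their direction and their call in each of the 4 group pairs, as did 39.3% of all genes, with 56.2%, 54.9%, 58% and 55.2% of all genes called in the single pairs (psilocybin and vehicle at 3 h, then psilocybin and vehicle at 4 weeks).

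The 2 receptors of the Htr5 class went in opposite directions. Htr5a ranged from 17.5 to 31.5 CPM (median 23.7) in the PFC and from 7.48 to 19.0 CPM (median 15.0) in the hypothalamus, a log2 difference of 0.69 (SE 0.0526, adjusted p = 2.14e-18) with 30 of 30 mice higher in the PFC. Htr5b ranged from 0.178 to 2.50 CPM (median 0.943) in the PFC and from 1.07 to 9.25 CPM (median 2.31) in the hypothalamus, a log2 difference of -1.80 (SE 0.186, adjusted p = 3.29e-13) with 29 of 30 mice higher in the hypothalamus. Of 6 habenula markers 5 were lower in the PFC and 1 higher (median log2 difference -2.65), and their part in the difference of Htr5b was not tested. Between libraries of the hypothalamus Htr5b was the most uneven receptor. With group and pool removed its coefficient of variation was 60.9%, against 12.9% from counting alone, whereas that of Htr3a was 14.9% against 15.9% and that of Htr7 10.9% against 4.23%.

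**Figure D2:**
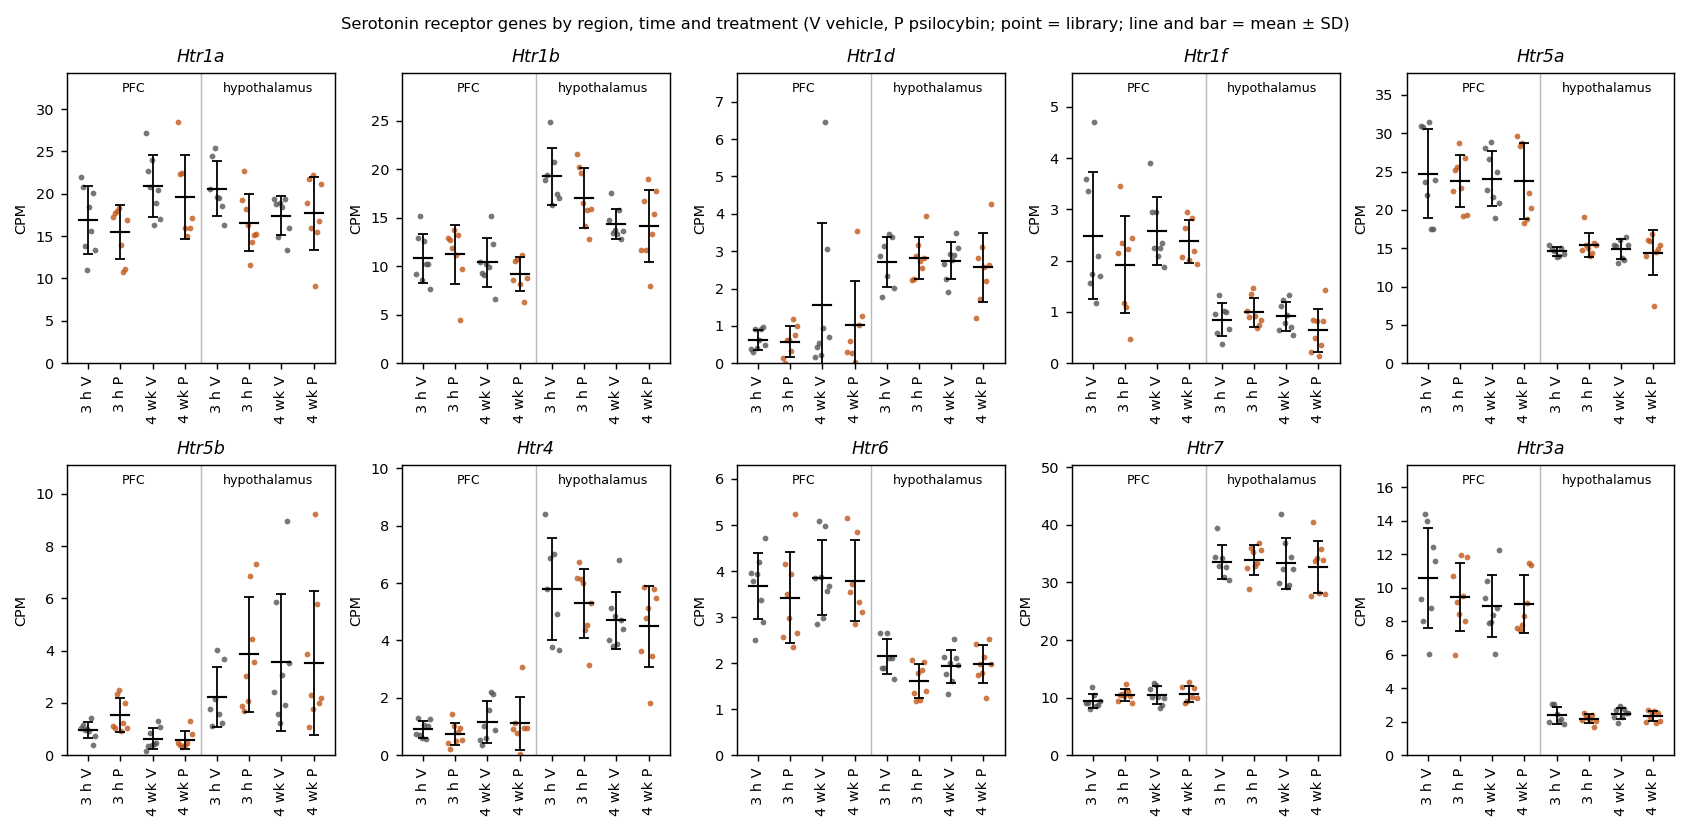
CPM of each receptor gene in each library (points) with mean ± SD (lines and bars) in the 8 groups, the PFC left and the hypothalamus right of the grey line, vehicle in grey and psilocybin in orange. The regions separate without overlap for Htr3a and Htr7, and the vehicle and psilocybin groups overlap for every gene.

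After psilocybin, 0 of 10 receptors were called in each of the 4 comparisons with vehicle. In the PFC at 3 h 0.0105% of all genes were called, 2 of 18971, and 0% in the PFC at 4 weeks and in the hypothalamus at 3 h and at 4 weeks. By DESeq2 and by the study's limma procedure, both run here on the same 62 libraries, 0 receptors were called as well, although in the PFC at 3 h DESeq2 called 0.0475% and that procedure 6.49% of all genes. At an unadjusted p under 0.05 there were 0 receptors in the PFC at 3 h (1371 of all genes), 0 in the PFC at 4 weeks (456), 3 in the hypothalamus at 3 h (337) and 0 in the hypothalamus at 4 weeks (1823). The libraries of 1 group came from separate mice. A missing call does not show that a level was unchanged, and the intervals below say how large a change remained within the error.

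In the PFC at 3 h the best determined receptors were Htr7 and Htr5a. Htr7 ranged from 9.01 to 12.4 CPM (median 10.4) after psilocybin and from 8.10 to 11.9 CPM (median 9.02) after vehicle, a log2 fold change of 0.16 (95% interval -0.02 to 0.34, adjusted p = 0.744). Htr5a ranged from 19.3 to 28.7 CPM (median 24.0) after psilocybin and from 17.5 to 31.5 CPM (median 23.8) after vehicle, a log2 fold change of -0.05 (-0.26 to 0.15, adjusted p = 0.958). The ranges of the groups overlapped for both genes, and for Htr7 the highest psilocybin library was above every vehicle library.

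The other Gi/o-coupled receptors of the PFC at 3 h had log2 fold changes of -0.14 for Htr1a (-0.39 to 0.11), 0.05 for Htr1b (-0.26 to 0.36), -0.28 for Htr1d (-1.19 to 0.64), -0.38 for Htr1f (-0.94 to 0.18) and 0.66 for Htr5b (-0.08 to 1.40). Htr5b was the largest of these, at 0.920 to 2.50 CPM (median 1.18) after psilocybin and 0.376 to 1.41 CPM (median 0.980) after vehicle, and did not pass the test (adjusted p = 0.737). Its difference was alike within both extraction pools, at 0.60 in pool C and 0.58 in pool D as differences of mean log2 CPM. Of the 6 habenula markers 0 were called in this comparison, with a median log2 fold change of 0.63, and their part was not tested. Pools C and D differed in sign for Htr1a (0.13 and -0.36), Htr1b (0.19 and -0.16), Htr1d (-0.74 and 0.02) and Htr3a (-0.40 and 0.12). With 1 library left out, Htr1f ran from -0.499 to -0.144, the latter without vehicle replicate 5. Htr4 had -0.28 (-0.97 to 0.42), and from -0.567 without psilocybin replicate 3 to -0.145 without vehicle replicate 2, Htr6 -0.11 (-0.43 to 0.22) and Htr3a -0.17 (-0.44 to 0.10).

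In the hypothalamus at 3 h Htr1a, Htr6 and Htr5b had an unadjusted p under 0.05 by edgeR, and each had an adjusted p of 1 over all genes. Htr1a ranged from 11.6 to 22.7 CPM (median 15.8) after psilocybin and from 16.3 to 25.4 CPM (median 19.6) after vehicle, with a log2 fold change of -0.34 (SE 0.128, unadjusted p = 0.00934). The groups overlapped, and the difference was -0.30 within pool A and -0.39 within pool B. Htr6 ranged from 1.18 to 2.08 CPM (median 1.59) after psilocybin and from 1.66 to 2.66 CPM (median 2.12) after vehicle, with a log2 fold change of -0.40 (SE 0.175, unadjusted p = 0.0253), and its groups overlapped too.

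Htr5b was at 1.71 to 7.32 CPM (median 3.30) after psilocybin and at 1.12 to 4.02 CPM (median 1.77) after vehicle in the hypothalamus at 3 h, with a log2 fold change of 0.77 (SE 0.352, unadjusted p = 0.0330 by edgeR). Within pool A the difference was 0.36 and within pool B 1.15. The 2 highest psilocybin libraries, replicates 8 and 5 at 7.32 and 6.86 CPM, also had summed levels of habenula markers of 310.0 and 190.9 CPM against a hypothalamus median of 68.93. Of the 6 habenula markers 0 were called in this comparison, with a median log2 fold change of 1.53, and the part of those cells in the difference was not tested. The other receptors there had log2 fold changes of -0.20 for Htr1b (-0.51 to 0.11), 0.07 for Htr1d (-0.68 to 0.83), 0.18 for Htr1f (-0.44 to 0.81), 0.07 for Htr5a (-0.14 to 0.29), -0.15 for Htr4 (-0.73 to 0.43), 0.01 for Htr7 (-0.16 to 0.19) and -0.14 for Htr3a (-0.45 to 0.18).

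At 4 weeks the estimates were small for the abundant receptors of both regions. In the PFC they were -0.08 for Htr1a (-0.33 to 0.18), -0.17 for Htr1b (-0.49 to 0.15), -0.01 for Htr5a (-0.22 to 0.20), 0.03 for Htr7 (-0.15 to 0.22), 0.01 for Htr3a (-0.27 to 0.30), -0.04 for Htr6 (-0.37 to 0.29), -0.07 for Htr1f (-0.64 to 0.50), -0.10 for Htr4 (-0.78 to 0.57) and -0.07 for Htr5b (-0.90 to 0.75) on the log2 scale. Htr1d stood at -0.59 (-1.44 to 0.25), with a median of 0.603 CPM after psilocybin and 0.619 after vehicle. That value was 0.10 without vehicle replicate 6, at 6.47 CPM, and -1.11 without psilocybin replicate 6, at 3.55 CPM. Of the 10 striatum markers 0 were called in this comparison, with a median log2 fold change of -0.48, and their part was not tested. Within the pools the difference of mean log2 CPM was 0.21 in pool C and -1.11 in pool D.

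In the hypothalamus at 4 weeks the log2 fold changes were 0.01 for Htr1a (-0.24 to 0.26), -0.01 for Htr1b (-0.32 to 0.29), -0.08 for Htr1d (-0.82 to 0.65), -0.06 for Htr5a (-0.27 to 0.15), -0.08 for Htr5b (-0.75 to 0.59), -0.08 for Htr4 (-0.65 to 0.48), 0.02 for Htr6 (-0.32 to 0.36), -0.02 for Htr7 (-0.19 to 0.15) and -0.10 for Htr3a (-0.40 to 0.21). Htr1f was the largest, at -0.42 (-1.06 to 0.21, adjusted p = 0.712), from 0.147 to 1.42 CPM (median 0.654) after psilocybin against 0.553 to 1.33 CPM (median 0.863) after vehicle. It was -0.796 without psilocybin replicate 8 and -0.245 without psilocybin replicate 5, the library with the most hypothalamus markers. The 4 differences between psilocybin effects, of 3 h minus 4 weeks in each region and of PFC minus hypothalamus at each time, had 0 of 10 receptors called by edgeR, with 0% of all genes. At an unadjusted p under 0.05 there were 0 receptors in each, and 585, 999, 528 and 1269 of all genes in that order.

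**Figure D3:**
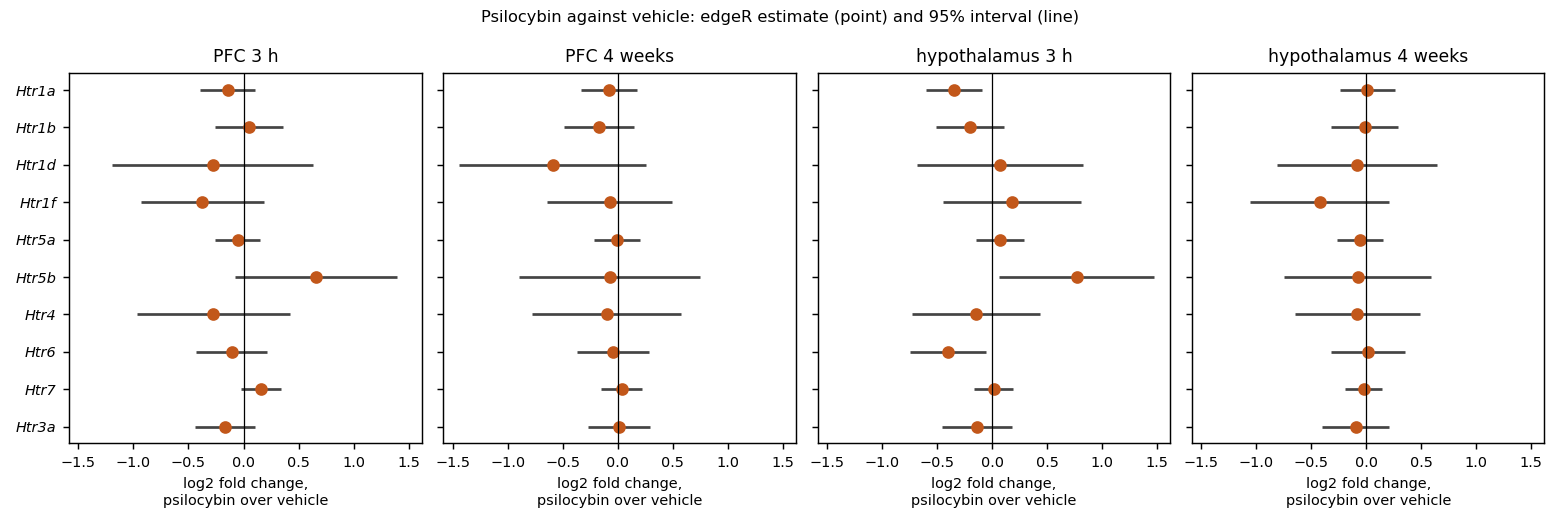
Log2 fold change of each receptor gene, psilocybin over vehicle (points, edgeR estimate; lines, 95% interval), in the PFC and hypothalamus at 3 h and 4 weeks. Intervals leave out 0 for Htr1a, Htr6 and Htr5b in the hypothalamus at 3 h before adjustment, and the widest intervals belong to Htr1d, Htr1f, Htr4 and Htr5b.

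Between the vehicle groups, 4 weeks against 3 h, 0 of 10 receptors were called in the PFC (4.72% of all genes) and 0 in the hypothalamus (0.685%). The time since injection and the age at harvest cannot be told apart here. Htr1a of the PFC ranged from 16.3 to 27.2 CPM (median 20.6) at 4 weeks and from 11.04 to 21.9 CPM (median 17.0) at 3 h, a log2 difference of 0.29 (unadjusted p = 0.0233 and adjusted p = 0.187 by edgeR), with 0.53 within pool C and 0.12 within pool D. Of 6 astrocyte markers 1 was lower at 4 weeks (median log2 difference -0.19), with summed levels of 2164 to 3906 CPM at 4 weeks and 2320 to 4326 CPM at 3 h, and the part of these cells in the difference was not tested. Htr1b of the hypothalamus ranged from 12.8 to 17.5 CPM (median 13.6) at 4 weeks and from 16.3 to 24.9 CPM (median 18.9) at 3 h, a log2 difference of -0.44 (unadjusted p = 0.00656 and adjusted p = 0.276 by edgeR). It was called by the study's limma procedure, at -0.41 with adjusted p = 0.00127, where 7.25% of all genes were called. Htr5b of the hypothalamus was 0.74 higher at 4 weeks on the log2 scale (unadjusted p = 0.0400, adjusted p = 0.571 by edgeR), and 0.455 without vehicle replicate 2 at 4 weeks. Of 6 habenula markers 1 was higher at 4 weeks (median log2 difference 1.73), with summed levels of 61.0 to 307.9 CPM at 4 weeks and 64.8 to 70.5 CPM at 3 h. The 2 vehicle libraries with the most at 4 weeks, replicates 7 and 2 at 307.9 and 183.3 CPM, were also the 2 with the most Htr5b, and the part of those cells was not tested.

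The extraction pools, which follow the cages (1 to 4 in pools A and C, 5 to 8 in pools B and D), were compared as a batch. Between pools D and C of the PFC 3 of 10 receptors were called (24.9% of all genes), and between pools B and A of the hypothalamus 2 of 10 (17.4%). Under the study's limma procedure 5 of 10 were called in each, against 45.3% of all genes for D against C and 34.8% for B against A. Htr1a was lower in the later-lettered pool of both regions, by edgeR at -0.35 in pool D (adjusted p = 0.00314) and -0.31 in pool B (adjusted p = 0.0142). The call in pool B was lost without the filter on low counts, at -0.271 (adjusted p = 0.0575 by edgeR). Its medians were 16.1 CPM in pool D against 20.8 in pool C, and 16.1 CPM in pool B against 19.2 in pool A, with overlapping ranges. In pool B 3 of 6 astrocyte, 4 of 6 microglia and 3 of 5 blood markers were higher, with median log2 differences of 0.25, 0.21 and 0.96, and their part in the difference of Htr1a was not tested. Htr5a was lower in pool D than in pool C at -0.32 (adjusted p = 0.0012).

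Htr1d was higher in pool D, with 0.0439 to 6.47 CPM (median 0.953) against 0 to 0.905 CPM (median 0.392) in pool C, a log2 difference of 1.66 (SE 0.323, adjusted p = 0.000193). The highest libraries were vehicle replicate 6, psilocybin replicate 6 and vehicle replicate 7 at 4 weeks, with 6.47, 3.55 and 3.06 CPM from 109, 44 and 30 reads, and without the first of them the log2 difference was 1.35. The same 3 libraries had the highest summed striatum markers of the PFC, 2217, 1011 and 951.6 CPM. Of the 10 striatum markers, 9 were higher in pool D, and the summed level was 271.4 to 686.5 CPM in pool C and 291.6 to 2217 CPM in pool D. None was at 0 in any library, and the most specific, Adora2a and Drd2, reached 101.0 and 76.3 CPM against medians of 2.92 and 1.35 CPM.

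Over the 31 PFC libraries Htr1d and the striatum sum had Pearson's r = 0.85 and Spearman's rho = 0.74 on log2(CPM + 0.5) (permutation p = 1e-05 for both, the smallest the permutations can give, adjusted p = 0.0004 and 0.000457 over 320 pairs of receptor, marker list and region). Without the 2 libraries farthest from the median of the sum r was 0.69, and rho was 0.51 within pool C and 0.84 within pool D. The sum left a gap between 527.9 and 686.5 CPM, and libraries above it, at 686.5 to 951.6 CPM, remained in that r. PFC libraries held a median of 11 reads of Htr1d, and the permutations took no account of pool or group. Htr4 of the PFC had r = 0.56 and rho = 0.39 with the same list (permutation p = 0.00132 and 0.0301, adjusted p = 0.0146 and 0.093), and r was 0.32 without the 2 farthest libraries. The part of striatal tissue in these values was not tested.

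Htr5b was higher in pool B of the hypothalamus, with 1.25 to 9.25 CPM (median 3.62) against 1.07 to 5.86 CPM (median 1.86) in pool A, a log2 difference of 0.97 (SE 0.245, adjusted p = 0.00585). The 6 libraries with the most Htr5b, between 5.79 and 9.25 CPM, were the 6 with habenula sums between 183.3 and 310.0 CPM, 5 of them in pool B. Of 6 habenula markers 1 was higher in pool B by the test, and the sum ranged from 56.1 to 183.3 CPM in pool A and from 61.0 to 310.0 CPM in pool B. Pou4f1, the most selective of them, was at 0 in 2 of 31 libraries and reached 15.6 CPM against a median of 0.394 CPM.

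The habenula sum left a gap between 118.1 and 183.3 CPM, so the 31 libraries fell into 2 clusters and no correlation over all of them is given. In the 6 libraries above the gap Htr5b had a median of 7.09 CPM, with r = 0.45 and rho = 0.31 (exact permutation p = 0.322 and 0.564, adjusted p over 4 values 0.521 and 0.564). In the 25 below it Htr5b ranged from 1.07 to 4.44 CPM (median 2.08), with r = -0.19 and rho = -0.60 (permutation p = 0.391 and 0.0018, adjusted p 0.521 and 0.0072), and r was -0.65 without the 2 farthest libraries. The permutations took no account of the pool. Over the 31 libraries the median was 42.6 CPM for Lrrc55 and 17.9 for Nwd2. It was 5.72 for Chrna3, 2.44 for Gpr151, 1.11 for Chrnb4 and 0.394 for Pou4f1. The sum below the gap thus held mostly Lrrc55 and Nwd2 and says little about the other markers. Within the pools of these 25 libraries rho was -0.20 in pool A and -0.49 in pool B, with no test. Above the gap lay 5 libraries of pool B and 1 of pool A, and below it 11 and 14. The part of habenular tissue in the values of Htr5b was not tested.

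Htr1a and Htr5a of the PFC varied with several marker lists. Over the 320 pairs of receptor, list and region, 68 had an adjusted permutation p of rho under 0.05, and the strongest relation of each of these receptors by rho is given in full. The permutations took no account of extraction pool or group, so these p-values include any shift between the pools. Htr1a was lower where the summed astrocyte markers were higher, with r = -0.81 and rho = -0.84 (permutation p = 1e-05 for both, adjusted p = 0.0004 and 0.000457, n = 31). Without the 2 farthest libraries r was -0.80, and rho was -0.80 within pool C and -0.47 within pool D. Htr5a was higher where the summed cortex markers were higher, with r = 0.77 and rho = 0.79 (permutation p = 1e-05 for both, adjusted p = 0.0004 and 0.000457), r = 0.73 without the 2 farthest and rho = 0.74 and 0.58 within pools C and D. Both receptors also ran against the microglia markers, at rho = -0.70 for Htr1a and -0.75 for Htr5a, and Htr5a against the astrocyte markers at -0.73 (adjusted p = 0.00064, 0.000457 and 0.00064 by permutation). All 6 astrocyte markers were higher in pool D, at 2610 to 4647 CPM summed against 2164 to 4326 CPM in pool C, and 4 of 10 cortex markers were lower. All 6 oligodendrocyte, all 6 microglia and all 5 blood markers were higher in pool D as well, with median log2 differences of 0.51, 0.36 and 1.06 against 0.41 for the astrocyte list. In the hypothalamus the same 2 relations had rho = -0.39 and -0.11 (permutation p = 0.0313 and 0.543, adjusted p = 0.093 and 0.666). The part of tissue make-up in the levels of Htr1a and Htr5a was not tested.

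**Figure D4:**
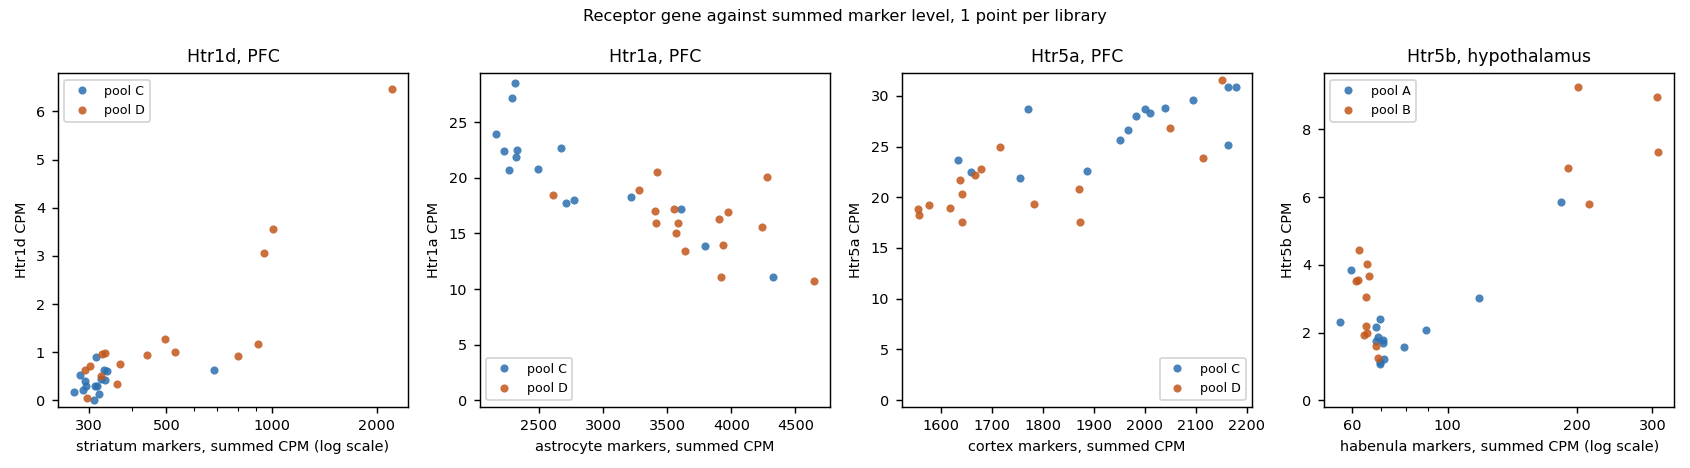
CPM of a receptor gene against the summed CPM of a marker list, 1 point per library, colored by extraction pool (31 libraries per panel; the striatum and habenula axes are on a log scale). Htr1d and Htr5b are high in the few libraries with the most striatum or habenula markers, and Htr1a is low where astrocyte markers are high.

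Among themselves, with group and pool means removed, the 5 highest values of the hypothalamus were all between receptors of the Htr1 class and Htr4 or within the Htr1 class. Spearman's rho over 31 libraries was 0.72 for Htr1a with Htr1b, 0.71 for Htr1b with Htr4, 0.68 for Htr1f with Htr4, 0.64 for Htr1b with Htr1f and 0.61 for Htr1d with Htr4. Other pairs of these 5 genes were lower, down to 0.31 for Htr1a with Htr1d, and Htr4 with Htr5a had 0.38. In the PFC the highest was 0.63, for Htr1d with Htr4, and the next 0.48, for Htr5a with Htr6, while the lowest was -0.49, for Htr1d with Htr7. In the hypothalamus the lowest values were those of Htr5b with Htr1a and Htr1f, given without a number since the libraries with the most Htr5b formed a cluster of their own. All these values share libraries, depth and scaling, and they are given as a description.

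The genes most like each receptor were sought among those with a mean of at least 1 CPM, by Spearman's rho over the 31 libraries of a region with group and pool means removed. In the hypothalamus Htr4 was most like Trank1 (rho = 0.88), Gria2, a subunit of AMPA glutamate receptors (0.88), and Slc7a6 (0.87). Htr5a there was most like Nalcn, the sodium leak channel (0.88), Chd6 (0.84) and Prrc2c (0.83), and Htr1b most like Homer1, a scaffold of the postsynaptic density (0.79), Zmynd8 (0.78) and Cnr1, the cannabinoid receptor (0.77). For Htr5b the closest were Tyrp1, Pou4f1, the habenula marker named above, and Cdhr4, with no value given since the libraries fell into 2 clusters. Htr7 was most like Gabbr2, a GABA-B receptor subunit (0.74), Frem3 (0.72) and Ablim1 (0.71).

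In the PFC the closest genes were Gpr155 (0.85), Enpp5 and Ppp1r2 for Htr1b, Pcdhac2 (0.84), Tecpr2 and Atp2b3 for Htr5a, and Zfp445 (0.83), Napb and Pdss1 for Htr1f. They were Coro7 (0.81), Smurf1 and Pnkd for Htr6, Mak16 (0.73), Metrnl and Brk1 for Htr3a, Asxl3 (0.72), A230056P14Rik and 4732496C06Rik for Htr1a, and Vwa1 (0.71), Nrm and Tubb4b for Htr7, each with the highest rho in parentheses. Receptors with a mean under 1 CPM, Htr1d, Htr4 and Htr5b in the PFC and Htr1f in the hypothalamus, were left out of this search. For Htr1a, Htr1d, Htr3a and Htr6 of the hypothalamus the closest were Vstm2a (0.80), Bmper and Dgkd, then Mdga1 (0.76), Mast3 and Syn3, then Mark3 (0.76), Lrrc49 and Nolc1, and then Dmrtb1 (0.63), Celrr and Dvl2.

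The genes around the receptors gave 0 calls by edgeR after psilocybin in all 4 comparisons. These were the 2 tested of 4 other serotonin receptors, 12 tested of 13 genes of serotonin synthesis, transport and breakdown, 15 Gi/o and potassium channel genes, 20 Gs and cyclic AMP genes and 20 receptor partners. The smallest adjusted p was 0.327, for Adcy8, an adenylyl cyclase, in the PFC at 3 h, at -0.30 on the log2 scale. Of these 69 genes 5 had an unadjusted p under 0.05 by edgeR in the PFC at 3 h, 1 in the PFC at 4 weeks, 1 in the hypothalamus at 3 h and 6 in the hypothalamus at 4 weeks. Of all 18971 genes 1371, 456, 337 and 1823 did so, in that order. The study's limma procedure called 7 of the 69 in the PFC at 3 h, against 6.49% of all genes, and 0 in the other comparisons. Higher by that procedure were the Gi subunits Gnai1 and Gnai3, at 0.33 and 0.32, the transcription factor Creb1 at 0.34, and the regulatory subunits of protein kinase A Prkar2b and Prkar1a, at 0.37 and 0.14, and lower were the adenylyl cyclases Adcy3 and Adcy8, at -0.35 and -0.33 (adjusted p from 0.0142 to 0.0456). DESeq2 called 0 in 3 of the comparisons and 1 in the hypothalamus at 4 weeks, Tph1, an enzyme of serotonin synthesis, at -3.83 (adjusted p = 0.00587, where 0.0686% of all genes were called). Vehicle replicate 3, the library with the most choroid plexus markers, held 106 reads of it, while the other libraries of both groups held 0 to 7 reads. The genes in these last sentences were named after their values were seen. Htr3b, the partner subunit of Htr3a, was at 0 in 23 of 31 PFC libraries and had a median of 4 reads in the hypothalamus, so it was not tested, and neither were Htr2b and the serotonin transporter Slc6a4.

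Between the regions many of these genes differed, as did 76.2% of all genes (39.6% higher and 36.5% lower in the PFC), so the counts below are read against those shares. The members of the Htr2 class that were tested went opposite ways, Htr2a at 2.01 and Htr2c at -2.43 (log2, PFC over hypothalamus). Of the 12 genes of serotonin handling 8 were lower in the PFC and 1 higher, led by Ddc, which makes serotonin and dopamine from their precursors, at -4.03, the vesicular transporter Slc18a2 at -3.78 and the transporter Slc29a4 at -1.80. The median of that list was -0.85, against 0.02 over all genes. Tph2, an enzyme of serotonin synthesis in that list, went the other way. Its mean was 0.554 RPKM in the PFC and 0.252 in the hypothalamus, from a median of 28 and 9 reads.

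Of 15 Gi/o and potassium channel genes 8 were higher and 3 lower in the PFC, with a median of 0.12, a share called near that of all genes. They included Gnao1, the main brain Go subunit, at 0.51, and 2 subunits of the potassium channels that Gi/o proteins open, Kcnj3 at 1.31 and Kcnj5 at -5.49. Of 20 Gs and cyclic AMP genes 8 were higher and 11 lower, with a median of -0.19, among them Gnas, the Gs subunit, at -1.79 and the adenylyl cyclases Adcy2 at 1.06 and Adcy8 at -1.37. Of 20 partners and regulators 10 were higher and 4 lower, with a median of 0.11, led by Dlg4, a synaptic scaffold, at 1.16 and the G protein regulators Rgs4 at 1.68 and Rgs14 at 2.46. The 10 receptors themselves had a median of -0.32.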

How the data were processed

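RNA was sequenced from the PFC and hypothalamus of 32 mice. The authors demultiplexed the reads with bcl2fastq 2.20.0, aligned them with STAR 2.7.2b to GRCm38 and counted pairs per gene with featureCounts 1.6.2, and deposited a table of raw counts for 64 libraries. Here 2 libraries under 1000000 counts were left out (211111 and 200066 counts). Genes were filtered with filterByExpr (minimum count 10), which left 18971 of 55401, scaled by TMM and tested with edgeR 4.0.16 (R 4.3.3; quasi-likelihood, robust) with group and extraction pool in 1 fit, and p-values were adjusted by Benjamini-Hochberg over all genes tested, with a call at 0.05. Alternatives were DESeq2 1.42.0, the study's weighted voom procedure with limma 3.58.1, other scaling, no filter, no pool, blocks, all 64 libraries and leaving out libraries. CPM and RPKM were computed from the counts with TMM library sizes and the deposited gene lengths.

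The receptors and gene lists were chosen with earlier results of these data known. Named were all 10 receptors, the genes of each list with the smallest adjusted p (at most 3) and the 3 genes most like each receptor in a region where its mean was at least 1 CPM. The script was tested on simulated data. No 2 libraries of a group agreed within sampling noise (lowest chi-square per degree of freedom 3.85 over 210 such pairs). Hypothalamus and PFC libraries of the same treatment, time and number were taken to come from 1 mouse, by the number in their titles. Their deviations from group and pool means had a mean correlation of 0.03 over 30 pairs (-0.18 to 0.335). The counts of mice out of 30 rest on this match, which the titles do not state. The study also left out 1 sample rich in wound healing and immune genes, which its text does not name. No library was left out for that here, so the inputs of its procedure differ from the study's. Cage numbers are shared by the treatment groups but are not stated to pair mice.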

Additional observations from a re-analysis of the deposited data

Results flagged for a closer look

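In 7 of 80 groups of 7 or 8 libraries 1 library lay far from the others of its group by Dixon's criterion, which chance alone meets in about 1 of 20 groups. In the PFC these were Htr1b in psilocybin replicate 7 at 3 h, lowest with 4.43 CPM where the next library had 9.68, Htr1d in psilocybin replicate 6 at 4 weeks, highest with 3.55 CPM (next 1.27), Htr1d in vehicle replicate 6 at 4 weeks, highest with 6.47 CPM (next 3.06), and Htr4 in psilocybin replicate 6 at 4 weeks, highest with 3.07 CPM (next 1.13). In the hypothalamus they were Htr4 in vehicle replicate 6 at 4 weeks, highest with 6.81 CPM (next 5.14), Htr5a in psilocybin replicate 2 at 3 h, highest with 19.0 CPM (next 15.7), and Htr5a in psilocybin replicate 5 at 4 weeks, lowest with 7.48 CPM (next 13.98).

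Summed marker levels of these libraries stand beside them here. Both Htr1d libraries and the Htr4 library of the PFC held 1011 or 2217 CPM of striatum markers against a PFC median of 326.8, and the low Htr5a library held 2896 CPM of hypothalamus markers against a median of 633.9, 1281 CPM of thalamus markers against 669 and 747.3 CPM of blood markers against 172.9. The high Htr4 library of the hypothalamus had the most wound healing and immune markers of its region, 333 CPM against 99.4. The low Htr1b library had 954.9 CPM of blood markers against 256.5. It also had the most wound healing and immune markers of the PFC, 375.1 CPM against 186.7, though the next library held 373.7 CPM. The part of these tissues in the values was not tested.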

How the results depend on the processing

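The number of receptors called was the same in the 4 psilocybin comparisons (0), the 4 differences between them (0) and the comparison of regions (9) under every alternative run. It was also the same in all 13 comparisons when any single library of the groups or pools compared was left out (0 to 0, 9 to 9, 2 to 2 for pool B against A and 3 to 3 for pool D against C). It changed for time in the hypothalamus, 1 (Htr1b) under the study's procedure, and for the pools, 1 without the filter (Htr1a lost, at -0.271) and 5 under the study's procedure for B against A (34.8% of all genes), and 5 under the study's procedure for D against C (45.3%). With a replicate block by cage the counts of receptors called stayed at 0 in the psilocybin and time comparisons and in the differences between times, and with a replicate block by mouse at 9 between the regions and at 0 in the differences between regions. Under the cage block Htr7 in the hypothalamus at 3 h was -0.00164 and Htr1a at 4 weeks -0.00852. The cause of these changes was not tested.

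Signs turned only for uncalled log2 values. PFC at 4 weeks: Htr3a was -0.00463 with all 64 libraries, Htr7 -0.0715 under the study's procedure, and without the 4 libraries that stood apart (an alternative chosen after seeing the data) Htr3a was -0.0669, Htr1d 0.0903, Htr4 0.0481, Htr6 0.0293 and Htr7 -0.0171. Hypothalamus at 4 weeks: without the filter Htr1a was -0.0207 and Htr6 -0.0212, under the study's procedure Htr1b 0.137, Htr1d 0.0434, Htr4 0.153, Htr5a 0.0583, Htr6 -0.0298 and Htr7 0.04, and without the 4 libraries Htr1b 0.05, Htr5a 0.0146 and Htr6 -0.0602. Htr1a between the regions was -0.0376 with DESeq2's size factors, -0.0503 without the filter, -0.0377 by DESeq2, -0.00573 under the study's procedure, -0.0131 with the mouse block and -0.0219 without the 4 libraries.

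With 1 library left out, ranges that crossed 0 were, in the PFC at 3 h, Htr1b -0.00634 to 0.166, Htr1d -0.497 to 0.0448 and Htr5a -0.107 to 0.0386. In the PFC at 4 weeks they were Htr1d -1.11 to 0.0961, Htr1f -0.142 to 0.00569, Htr3a -0.0643 to 0.0941, Htr4 -0.509 to 0.143, Htr5a -0.04 to 0.0254, Htr5b -0.387 to 0.0992, Htr6 -0.134 to 0.037 and Htr7 -0.0153 to 0.0833. In the hypothalamus at 3 h they were Htr1d -0.00417 to 0.147 and Htr7 -0.0133 to 0.0478. At 4 weeks they were Htr1a -0.0727 to 0.101, Htr1b -0.0959 to 0.0725, Htr1d -0.208 to 0.00106, Htr4 -0.177 to 0.0376, Htr5a -0.09 to 0.0415, Htr5b -0.349 to 0.207, Htr6 -0.0397 to 0.0935 and Htr7 -0.0669 to 0.0248. Htr1a between the regions ran from -0.0288 to 0.027. Values that moved by over 1.5 times without crossing 0, beside those given in the report, were in the PFC at 3 h Htr1a -0.233 to -0.0687, Htr3a -0.262 to -0.0837 and Htr6 -0.228 to -0.0391, in the PFC at 4 weeks Htr1a -0.152 to -0.042 and Htr1b -0.242 to -0.0468, and in the hypothalamus at 3 h Htr1f 0.07 to 0.312, Htr3a -0.187 to -0.0734, Htr4 -0.219 to -0.0606 and Htr5a 0.037 to 0.0898.

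Over all genes, calls in the PFC at 3 h were 2, against 1 without the filter, without the pool or with all 64 libraries, 9 by DESeq2, 1232 under the study's procedure, 33 without the 4 libraries and 1 to 11 without 1 library. In the PFC at 4 weeks they were 0, against 19 by DESeq2, 1 without the pool and 3 with all 64 libraries, and in the hypothalamus at 4 weeks 0 against 13 by DESeq2. For time they were 896 in the PFC, against 425, 521 and 1611 (no filter, all 64, without the 4) and 480 to 1378 without 1 library, and 130 in the hypothalamus, against 60, 53, 216 and 1375 under the study's procedure and 67 to 119 without 1 library. For the difference between psilocybin effects at 3 h and 4 weeks in the PFC, DESeq2 gave 4 and the study's procedure 1 where edgeR gave 0. For PFC minus hypothalamus, the study's procedure gave 8 at 3 h and DESeq2 gave 64 at 4 weeks, where edgeR gave 0. For pool B against A 3294 became 2106 without the filter and 6606 under the study's procedure. For pool D against C 4721 became 8596 under the study's procedure. Htr1d, Htr4 and Htr5b in the PFC and Htr1f in the hypothalamus had a mean of fewer than 20 reads a library, which limits the precision of their fold changes.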
